A study of Mus musculus with 10 samples.

Results

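The Hmga, Lin28 and Igf2bp genes are oncofetal genes, which are active in the embryo, quiet in most adult tissues and switched on again in many tumors. The 8 mouse members described here are Hmga1, its near-identical copy Hmga1b, Hmga2, Igf2bp1, Igf2bp2, Igf2bp3, Lin28a and Lin28b. They were taken by gene symbol from a count table of 56750 features, and all 8 had a row. They were followed in sarcomas of 2 mouse models. With Hmga1 and Hmga1b summed, 0 of 7 members passed the test across all genes in edgeR (Benjamini-Hochberg adjusted p under 0.05), where 0.178% of all tested genes passed. Igf2bp3 had a higher level in each CIC::DUX4 tumor than in either KP tumor (adjusted p 0.102 in edgeR). Hmga1 and Hmga1b together had a lower level in each (adjusted p 0.216 in edgeR), by an amount that rested on 1 KP tumor. Igf2bp1 also had a lower level in each (adjusted p 0.362 in edgeR). As a ratio to a background of receptor genes, 1 KP tumor lay among the CIC::DUX4 tumors. With that background subtracted, the log2 fold change was -2.61, against -2.53 before. Hmga2 and Igf2bp2 overlapped between the models, and Lin28a and Lin28b were near the limit of detection.

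HMGA proteins are small architectural proteins that bind AT-rich DNA through AT-hook motifs and bend it. LIN28A and LIN28B are RNA-binding proteins that block the maturation of the let-7 family of microRNAs. Let-7 microRNAs in turn repress transcripts with matching sites in their 3′ UTRs, among them Hmga2, Lin28 and Igf2bp transcripts. IGF2BP proteins bind mRNAs, including transcripts that carry N6-methyladenosine (m6A), and regulate their stability, transport and translation.

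The dFLEx group held 3 tumors (170019, 170024 and 170025) of mice with the genotype dFLEx CDS +/-. These mice carry an HA-tagged CIC::DUX4 transgene, a fusion of the repressor CIC with the activator DUX4, behind a CAG promoter. The transgene is put in order only when Cre and FLP have both acted, and the study delivered these recombinases as plasmids electroporated into the calf muscle, so expression is limited to transfected cells and their descendants. The KP group held 2 tumors (3800 and 3802) of mice that carry p53fl/fl, in which the loss of p53 depends on Cre, together with a second Cre-dependent allele. The groups differ in their inducing alleles. How the KP tumors were induced is not given in the sources used here, so the site and age of the tumors cannot be told apart from the genotype. The RNA of a tumor was divided in duplicate, so the tumor was the replicate and duplicates were summed. 3802 is represented by 1 library.

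Library totals ran from 20503474 to 46302223 counts, and the number of features with a count from 24280 in a library of 3800 to 36904 in 3802. Levels are counts scaled to a common library total (CPM), with the trimmed mean of M values (TMM). The CIC_DUX4 feature had 105, 202 and 423 CPM in 170019, 170024 and 170025, 0 CPM in 3800, which allows up to 0.0403 CPM, and 0.244 CPM in 3802, which matched the labels. Tumor 3802 stood apart at low levels. Over 1545 olfactory and vomeronasal receptor genes, which muscle and sarcoma cells should not use, the pooled level was 0.107 CPM per kilobase in 3802, against 0.0240, 0.0151 and 0.00278 in the dFLEx tumors and 0.00603 in 3800. The summed level of 8 macrophage markers was 863, 845 and 669 CPM in the dFLEx tumors and 1503 and 4521 CPM in 3800 and 3802. The summed level of 9 myocyte markers was 8060, 33353 and 9297 CPM against 1532 and 3927 CPM. Of the macrophage markers 7 of 8 were lower in dFLEx tumors and of the myocyte markers 9 of 9 were higher. In either list 0 passed the threshold below (5 and 6 at an unadjusted p under 0.05). DESeq2 on tumor sums passed 0 macrophage markers and 2 myocyte markers, Myh4 and Myl1, both higher. Of 5 satellite cell and myoblast markers 4 were lower in dFLEx tumors, with a median log2 fold change of -2.97 and 0 past the threshold (3 at an unadjusted p under 0.05, and the same number passed with DESeq2 on tumor sums). Myog, a regulator of myoblast differentiation, had 6.82, 16.8 and 6.88 CPM in dFLEx tumors, against 112 and 254 CPM in KP tumors. All 6 T cell markers were lower (summed level 6.79 to 9.17 against 11 and 48.6 CPM) and all 8 endothelial markers were higher (summed level 253 to 600 against 107 and 189 CPM). In either list 0 passed the threshold (3 and 1 at an unadjusted p under 0.05). DESeq2 on tumor sums passed Cd3d, a T cell marker, lower and Pecam1, an endothelial marker, higher. Of the fibroblast markers 5 of 6, of the pericyte markers 4 of 5 and of the erythroid markers 2 of 5 were higher. Of the B cell markers 4 of 4 were lower. In these lists 0 passed in edgeR or with DESeq2 on tumor sums. Over all tested genes 43.7% were higher in dFLEx tumors and 10.6% had an unadjusted p under 0.05 in edgeR, and DESeq2 on tumor sums passed 6.07%. In bulk tissue, fewer cells of a type and less RNA per cell cannot be told apart, and the part of other cell types in the levels below was not tested.

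The let-7 link between these genes can be read in sequence. Among the mouse mature microRNAs of RefSeq (build GRCm38.p6), names of the form of let-7a-5p, together with miR-98-5p, gave 9 entries. All 9 share the seed, bases 2 to 8. Names of other forms were not searched. The following 3 show how the bases beyond the seed vary, with the seed in capitals.
let-7a-5p: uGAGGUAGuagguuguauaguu
let-7g-5p: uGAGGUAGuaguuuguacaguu
miR-98-5p: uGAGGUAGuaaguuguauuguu

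The reverse complement of the seed, CTACCTC, was searched on the sense strand of the longest annotated 3′ UTR of each protein-coding gene (GENCODE M39, GRCm39). It was found in 11.9% of 20968 genes and in all 8 members. Hmga2, Igf2bp1 and Lin28b held 4 matches each, a number reached by 0.0715% of all genes. Lin28a held 2 matches, a number reached by 1.57% of genes, and the other members 1 each. Per kilobase the members held from 0.469 matches in Igf2bp3 to 1.32 in Hmga2, against 0.0713 over all 3′ UTRs. The members include known let-7 targets, so these counts describe the list. A match of these letters is not by itself a site in use, and mature microRNAs were not measured.

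The first match in the 3′ UTR of each member is printed below in the transcript's direction, with the seed match in capitals. The match in Hmga1 and in Hmga1b lay in the same 23 bases. In Hmga2, the Igf2bp genes and the Lin28 genes the first match was followed by an A, the base that favors binding by the silencing complex, and in Hmga1 and Hmga1b by a T.
Hmga1, chr17:27782251-27782273, exon 5 of 5, plus strand: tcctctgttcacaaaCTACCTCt
Hmga1b, chr11:120654824-120654846, its only exon, plus strand: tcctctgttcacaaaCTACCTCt
Hmga2, chr10:120200129-120200151, exon 6 of 6, minus strand: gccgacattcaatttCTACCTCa
Igf2bp1, chr11:95852604-95852626, exon 15 of 15, minus strand: gctgtgcgaagtaaaCTACCTCa
Igf2bp2, chr16:21878223-21878245, exon 16 of 16, minus strand: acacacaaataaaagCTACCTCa
Igf2bp3, chr6:49063721-49063743, exon 15 of 15, minus strand: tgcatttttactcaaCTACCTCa
Lin28a, chr4:133732500-133732522, exon 4 of 4, minus strand: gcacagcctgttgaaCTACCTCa
Lin28b, chr10:45257118-45257140, exon 5 of 5, minus strand: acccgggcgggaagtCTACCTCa

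**Figure D1:**
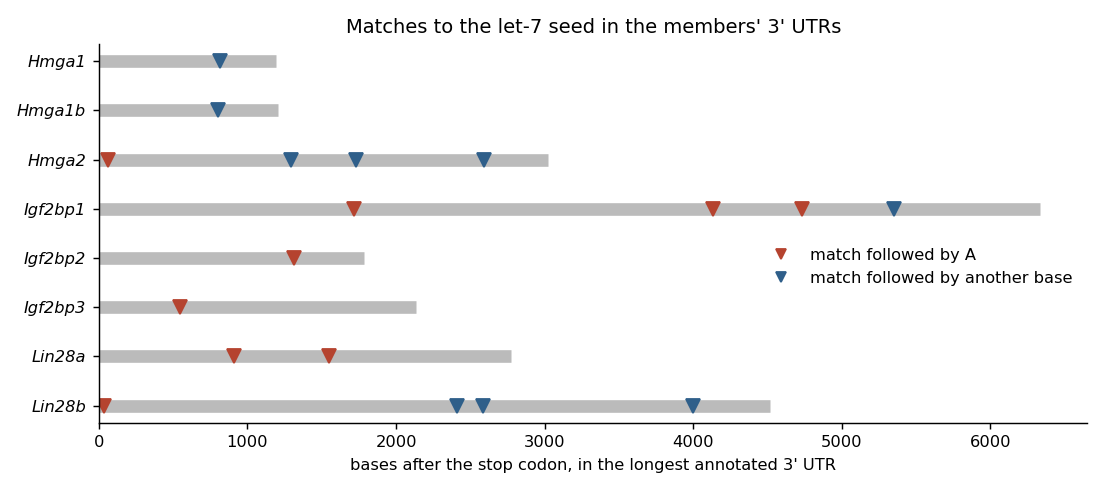
The horizontal axis is the distance in bases from the stop codon, grey bars are the longest annotated 3′ UTRs of the 8 genes, and triangles are matches to the let-7 seed, red where an A follows and blue where another base follows. Hmga2, Igf2bp1 and Lin28b hold 4 matches each, and 3 of the 4 in Igf2bp1 are followed by an A.

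The first comparison asked which members differed between dFLEx and KP tumors. With Hmga1 and Hmga1b summed, 7 member rows were tested by edgeR's quasi-likelihood test on tumor sums, and 0 of 7 had a Benjamini-Hochberg adjusted p under 0.05. Over all 24742 tested genes 0.178% passed, 25 higher and 19 lower in dFLEx tumors. At an unadjusted p under 0.05 there were 3 of the 7 members, against 10.6% of all genes. Every dFLEx tumor lay above every KP tumor for 1 member, Igf2bp3, as for 13.7% of all genes. Every dFLEx tumor lay below every KP tumor for 2 members, Hmga1+Hmga1b and Igf2bp1, as for 11.7% of all genes. With 7 members these counts are a description of the list only. DESeq2 on tumor sums passed 2 of the 7 members, Igf2bp3 higher and Hmga1+Hmga1b lower, where 6.07% of all genes passed. The same 2 passed with limma-voom, fitted to single libraries with a random effect for the tumor, where 2.78% of all genes passed. With the 9 libraries treated as independent samples edgeR passed 3 of the 7, Igf2bp3 higher and Hmga1+Hmga1b and Igf2bp1 lower, where 17.1% of all genes passed. That fit counts duplicates of a tumor as replicates, so its p-values are too small.

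**Figure D2:**
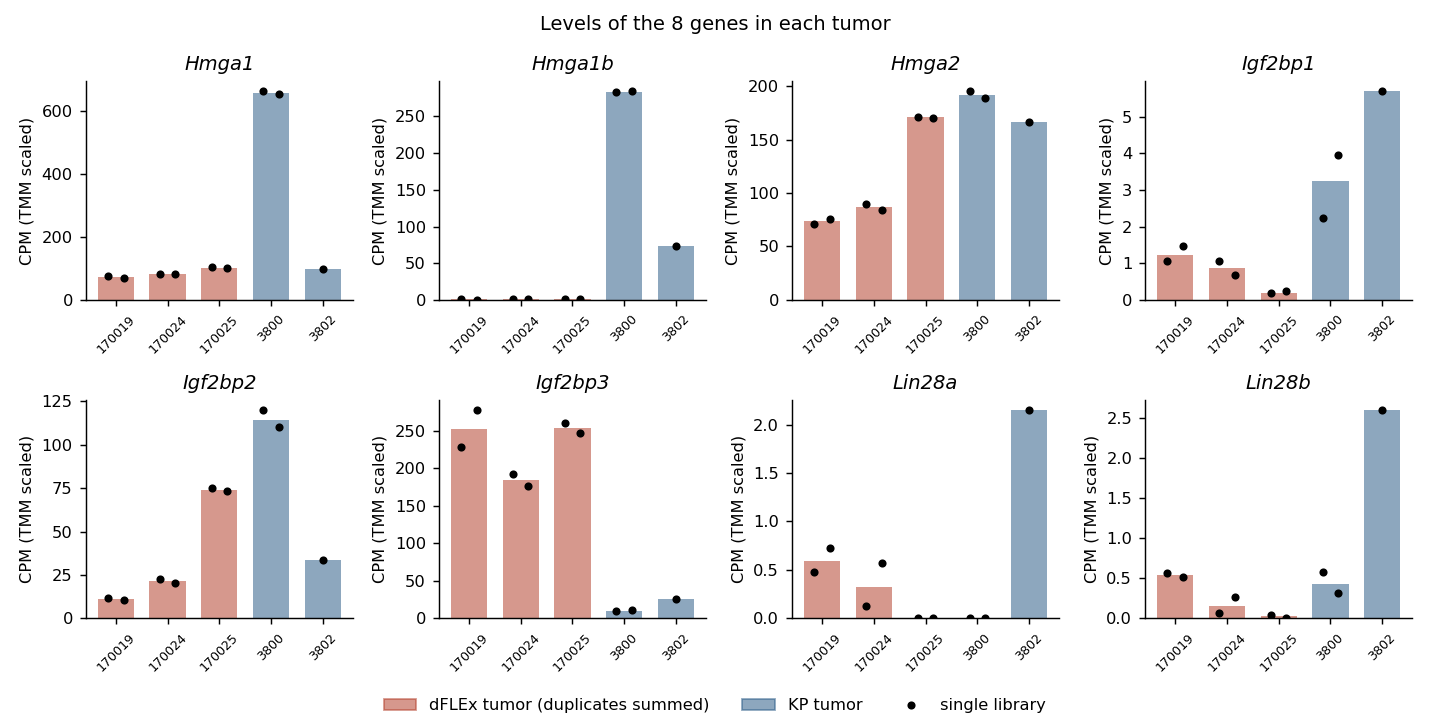
Bars are TMM-scaled CPM of each tumor on a linear axis from 0 (dFLEx red, KP blue), with duplicates summed, and black points are single libraries on the scale of their tumor. Igf2bp3 lay between 185 and 254 CPM in dFLEx tumors and at 10.5 and 25.8 CPM in KP tumors, and Hmga1b was at most 1.20 CPM in dFLEx tumors.

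Igf2bp3, which encodes an IGF2BP protein that adult tissues largely lack, had the highest log2 fold change of the family. It lies on the minus strand of chromosome 6 (49062157 to 49191891, GRCm39). The dFLEx tumors 170019, 170024 and 170025 held 252, 185 and 254 CPM, while 3800 held 10.5 CPM and 3802 held 25.8 CPM. All 3 dFLEx tumors were close to each other, within a 1.38-fold range, and the lowest of them lay 7.16-fold above the higher KP tumor. The mean was 230 ± 39.5 CPM (SD, n = 3) in dFLEx tumors and 18.2 ± 10.8 CPM (SD, n = 2) in KP tumors, a 12.7-fold ratio. The log2 fold change was 3.66 (SE 0.70, 95% interval 2.05 to 5.28, adjusted p 0.102 in edgeR), so it missed the threshold over all genes. Permuting the tumors (exact, two-sided by doubling the smaller tail) gave p = 0.2. That is the smallest p this form of the test can give with 3 tumors against 2. With each tumor left out in turn the log2 fold change ran from 3.32 without 3800 to 4.47 without 3802, with adjusted p from 0.0513 to 0.31 in edgeR. DESeq2 on tumor sums gave an adjusted p of 5.09e-05. With a trend of levels with GC content and exonic length removed (described for Igf2bp2 below), the dFLEx tumors were less close. They held 338, 209 and 209 CPM, against 7.9 and 28.2 CPM in KP tumors, and the log2 fold change was 3.81 (SE 0.74, adjusted p 0.0941 in edgeR). Among dFLEx tumors the order of Igf2bp3 was not that of the transgene. The tumors 170019 and 170025 held 105 and 423 CPM of CIC_DUX4 and, before that trend was removed, nearly equal levels of Igf2bp3. The trend was not removed from CIC_DUX4, and whether Igf2bp3 depends on the transgene was not tested.

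CIC binds DNA at the octamers TGAATGAA and TGAATGGA, and CIC::DUX4 keeps the DNA-binding part of CIC. Promoters from RefSeq (GRCm38.p6, 250 bases before to 50 after a start site) were found for 7 of the 8 members, Igf2bp1 being the exception. Neither octamer was found on either strand in any of them, and 2.47% of 32851 promoters hold one or the other. The shorter core shared by both, TGAATG, was added to the search after the promoters had been seen. It was found in the promoters of Igf2bp3 and Lin28b, as in 12.7% of all promoters. The promoter of Igf2bp3 is printed here because Igf2bp3 is the member that separated upward. It lies on the minus strand at chr6:49214905-49215204 (GRCm38.p6), and the capitals mark the core, which is read on the opposite strand and begins 14 bases after the start site.
Igf2bp3 promoter: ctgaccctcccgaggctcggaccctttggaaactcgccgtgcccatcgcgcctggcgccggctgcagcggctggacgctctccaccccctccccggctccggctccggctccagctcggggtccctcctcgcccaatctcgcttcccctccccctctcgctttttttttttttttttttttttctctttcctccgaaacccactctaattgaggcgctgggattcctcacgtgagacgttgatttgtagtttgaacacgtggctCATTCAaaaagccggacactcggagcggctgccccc

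Igf2bp2, the IGF2BP gene that stays active in many adult tissues, varied more within the groups than between them. The gene spans chromosome 16 from 21877759 to 21982049, minus strand. The dFLEx tumors 170019, 170024 and 170025 held 11.3, 21.6 and 74.2 CPM, while 3800 held 114 CPM and 3802 held 33.5 CPM. The groups overlapped, since 170025 lay above 3802, and the dFLEx tumors spanned a 6.59-fold range. The log2 fold change was -1.05 (SE 0.90, adjusted p 0.844 in edgeR), and it turned to 0.27 without 3800 and reached -2.16 without 170025. The 2 highest tumors, 170025 and 3800, were also the 2 with the fewest features and the lowest receptor background. A trend of levels with GC content and exonic length, fitted over 15228 genes in each tumor, predicted a log2 deviation of 0.29 and 0.27 for Igf2bp2 in these tumors and of -0.36 in 170019. With that trend removed the levels were 14.4, 23.1 and 60.8 CPM in dFLEx tumors, against 94.5 and 36.9 CPM in KP tumors, in the same order.

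Igf2bp1, the third gene of the family, had low levels in both models. It lies on the minus strand of chromosome 11 (95847989 to 95896766). The dFLEx tumors 170019, 170024 and 170025 held 1.24, 0.884 and 0.202 CPM, while 3800 held 3.24 CPM and 3802 held 5.69 CPM. The lower KP tumor lay 2.60-fold above the highest dFLEx tumor. The mean was 0.777 ± 0.529 CPM (SD, n = 3) against 4.46 ± 1.73 CPM (SD, n = 2), and the log2 fold change was -2.53 (SE 0.91, adjusted p 0.362 in edgeR). Between 8 and 33 reads per dFLEx library lie behind these values, and duplicates of dFLEx tumors differed by up to 1.52-fold (170024). Those of the KP tumor 3800, with 69 and 172 reads, differed by 1.77-fold. Per kilobase, Igf2bp1 stood at 5.36, 6.06 and 7.48 times the receptor background in the dFLEx tumors, 55.5 times in 3800 and 5.51 times in 3802. In this ratio 3802 lay among the dFLEx tumors, while 3800 stood clear of them. With the background subtracted instead of divided out, the log2 fold change was -2.61.

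Set side by side on a scale per exonic length, the 3 Igf2bp genes stood in a different order in the models. Igf2bp3 took 94.9%, 88.2% and 75.6% of the Igf2bp sum in 170019, 170024 and 170025, and 7.59% and 38.2% in 3800 and 3802. Igf2bp2 took 4.68%, 11.4% and 24.3% in the dFLEx tumors and 90.4% and 54.7% in the KP tumors. Igf2bp1 took at most 0.395% in dFLEx tumors and 1.96% and 7.10% in KP tumors. The ratio of Igf2bp3 to Igf2bp2, which does not depend on library scaling, was 4.34, 2.95 and 1.64 on the log2 scale in dFLEx tumors and -3.58 and -0.52 in KP tumors. The groups did not overlap in this ratio (exact two-sided permutation p = 0.2, the smallest this form of the test can give). The Igf2bp sum was 32.5, 25.6 and 41.2 CPM per kilobase in dFLEx tumors and 17.0 and 8.27 CPM per kilobase in KP tumors.

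**Figure D3:**
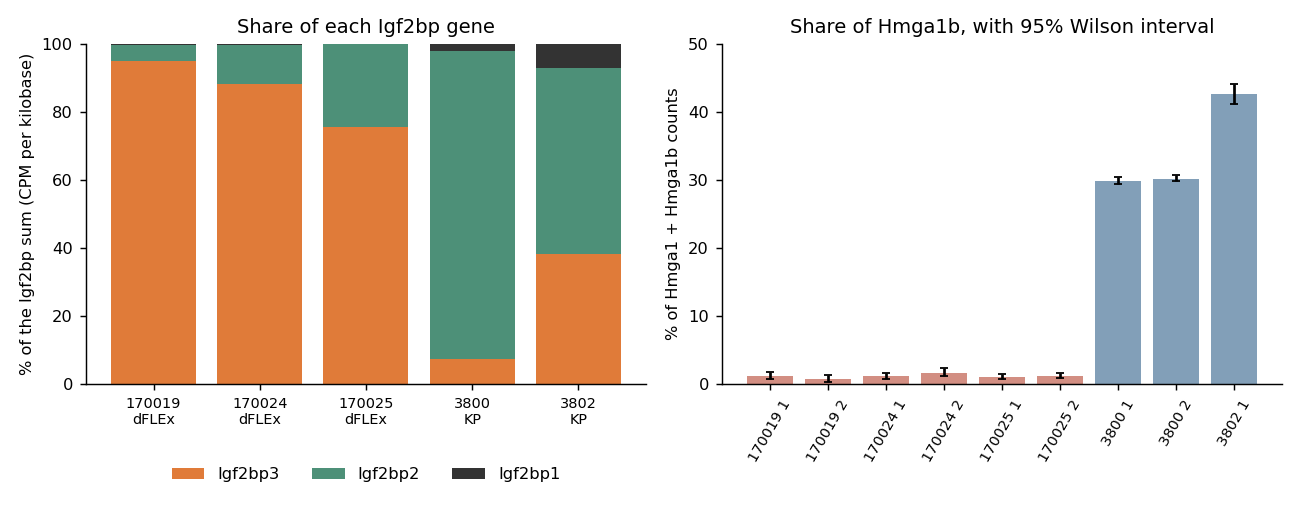
Left, the stacked bars give the percentage of each Igf2bp gene in the Igf2bp sum of CPM per kilobase in each tumor. Right, bars give Hmga1b as a percentage of the reads of Hmga1 and Hmga1b in each library, with 95% Wilson intervals. Igf2bp3 is the largest share in each dFLEx tumor and Igf2bp2 in each KP tumor, and the Hmga1b share is at most 1.74% in dFLEx libraries and at least 29.9% in KP libraries.

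Hmga1 and Hmga1b were read together because short reads keep them apart poorly. Hmga1 is a multi-exon gene on the plus strand of chromosome 17 (27775471 to 27782648), and Hmga1b is a gene of 1 exon on the plus strand of chromosome 11 (120653620 to 120655245). Over 1534 aligned bases the transcripts differ at 3 positions, an identity of 99.8%. Of the 1477 windows of 150 bases in Hmga1b, 69.5% are found without a mismatch in an Hmga1 transcript. Reads with several alignments were not counted, so the sum misses reads that fit both genes.

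Summed, Hmga1 and Hmga1b held 73.7, 82.8 and 104 CPM in the dFLEx tumors 170019, 170024 and 170025, while 3800 held 942 CPM and 3802 held 173 CPM. The dFLEx tumors were within a 1.41-fold range, and the KP tumors, both above them, differed 5.46-fold from each other. The mean was 86.7 ± 15.4 CPM (SD, n = 3) in dFLEx tumors and 557 ± 544 CPM (SD, n = 2) in KP tumors. The log2 fold change was -2.68 (SE 0.74, 95% interval -4.40 to -0.97, adjusted p 0.216 in edgeR). With the trend of GC content and length removed it was -3.52 (SE 0.91, adjusted p 0.172 in edgeR). The dFLEx tumors were then less close, at 48.4, 61.3 and 127 CPM, against 1636 and 170 CPM in 3800 and 3802. The size of the fold change of -2.68 rested on 3800. Without that tumor it was -0.83 (adjusted p 0.496 in edgeR), and without 3802 it was -3.42 and passed the threshold (adjusted p 0.0342 in edgeR).

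The copies gave different values when their rows were kept separate. Hmga1 alone had 72.9, 81.6 and 102 CPM in dFLEx tumors, 658 CPM in the KP tumor 3800 and 99 CPM in 3802. The level in 3802 fell among those of the dFLEx tumors, so Hmga1 overlapped between the groups (log2 fold change -2.14, SE 0.78, adjusted p 0.367 in edgeR). Hmga1b had 0.721, 1.20 and 1.18 CPM in dFLEx tumors, against 283 and 73.6 CPM in KP tumors. Its lower KP tumor lay 61.5-fold above the highest dFLEx tumor, and this row passed the threshold (log2 fold change -7.42, SE 0.84, adjusted p 0.0426 in edgeR). Hmga1b thus made up 0.979%, 1.44% and 1.14% of the reads of both genes in 170019, 170024 and 170025, and 30.1% and 42.6% in 3800 and 3802. The exact two-sided permutation p was 0.2, the smallest this form of the test can give. The 95% Wilson intervals of single libraries reached 2.37% at most in dFLEx libraries and started at 29.4% in KP libraries. They take reads as independent, although mates were counted as separate reads, so they are too narrow for counting error. They do not cover the spread between tumors. Whether these reads come from transcription of the Hmga1b locus or from Hmga1 reads placed there was not tested.

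Hmga2, the other architectural gene of the family, was abundant in both models. It lies on the minus strand of chromosome 10 (120197180 to 120312374). The dFLEx tumors 170019, 170024 and 170025 held 73.4, 87.3 and 171 CPM, while 3800 held 192 CPM and 3802 held 166 CPM. The KP tumors agreed within 1.16-fold, and 170025 lay between them. The mean was 110 ± 52.6 CPM (SD, n = 3) against 179 ± 18.3 CPM (SD, n = 2), and the log2 fold change was -0.70 (SE 0.58, 95% interval -2.04 to 0.65, adjusted p 0.839 in edgeR). With the trend of GC content and length removed the levels were 91.5, 94.5 and 144 CPM in dFLEx tumors, against 157 and 183 CPM in KP tumors, which no longer overlapped, and the log2 fold change was -0.63 (SE 0.46, adjusted p 0.728 in edgeR). The ratio of Hmga1+Hmga1b to Hmga2 counts was 0.00, -0.08 and -0.72 on the log2 scale in the dFLEx tumors, 2.30 in 3800 and 0.06 in 3802.

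Lin28a, the paralog best known from pluripotent cells, was at or near 0. Its locus is chromosome 4, 133730641 to 133746152, minus strand. Both libraries of 170025 and both of 3800 held 0 reads. The libraries of 170019 held 10 and 14 reads, those of 170024 held 4 and 15, and that of 3802 held 53. The 0 counts allow up to 0.0378 CPM in 170025 and 0.0403 CPM in 3800, taking 3 counts as the limit over the summed libraries. Per kilobase the other tumors stood at 6.24 (170019), 5.47 (170024) and 5.05 times (3802) their receptor background, so the tumors with Lin28a reads were the tumors with the higher background. The log2 fold change of -1.79 had an SE of 2.21 (adjusted p 0.899 in edgeR) and turned to 7.28 without 3802, so no direction was detectable at this depth.

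Lin28b, the paralog most often switched on in tumors, was also low. Its locus is chromosome 10, 45252716 to 45362491, minus strand. The libraries of 170019 held 12 and 10 reads, those of 170024 held 2 and 7, and those of 170025 held 2 and 0. Those of 3800 held 18 and 14 reads, and that of 3802 held 64. The levels were 0.547, 0.156 and 0.0252 CPM in dFLEx tumors, against 0.430 and 2.60 CPM in KP tumors, and 170019 lay above 3800. Relative to the receptor background per kilobase, Lin28b stood at 2.52, 1.14 and 0.998 times in the dFLEx tumors, 7.87 times in 3800 and 2.69 times in 3802. The dFLEx tumors 170024 and 170025 were therefore near the background. The log2 fold change was -2.64 (SE 1.44, adjusted p 0.637 in edgeR) and -0.83 without 3802.

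**Figure D4:**
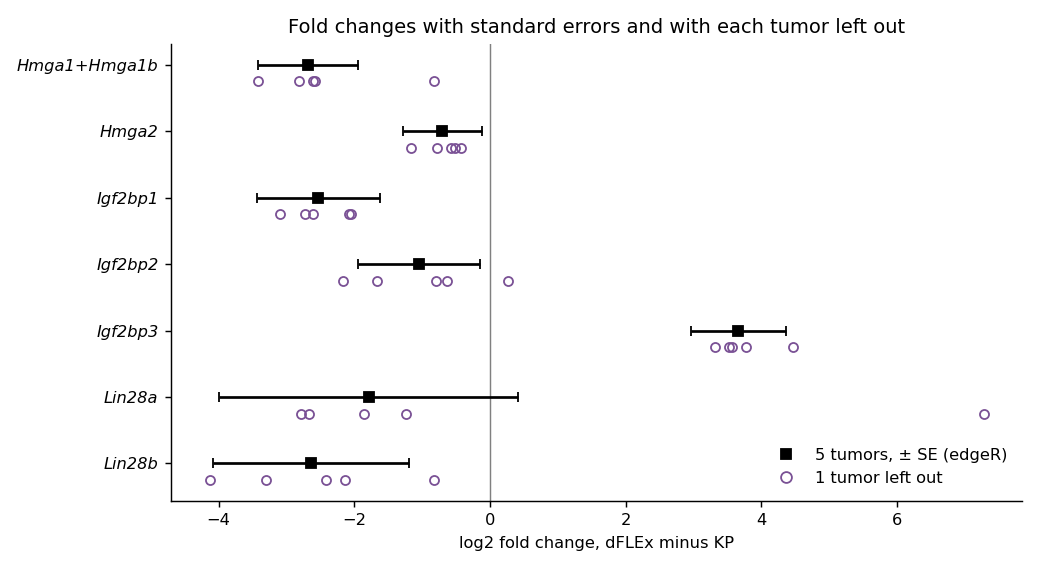
Squares are log2 fold changes of dFLEx minus KP with SE bars from edgeR on 5 tumors, and open circles are the values with 1 tumor left out. The 5 circles of Igf2bp3 stay between 3.32 and 4.47, those of Igf2bp2 and Lin28a cross 0, and those of Hmga1+Hmga1b reach -0.83 without 3800.

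Patterns close to those of the members were looked for among 9840 protein-coding genes whose mean was 10 CPM or more, as the distance between centred log2 levels over 5 tumors. Nearest to Igf2bp3 were Gas6, which encodes a ligand of the TAM receptors, and Islr, a gene of mesenchymal cells, each at a distance of 0.29. Gas6 had 475, 377 and 481 CPM in dFLEx tumors, against 25.6 and 52.6 CPM in KP tumors. Nearest to Hmga1+Hmga1b were Ank (0.32), which encodes a transporter of pyrophosphate, and Sh3bgrl2 (0.34). Nearest to Hmga2 were Myo9b (0.17) and Xpnpep3 (0.23), and nearest to Igf2bp2 were Slf2 (0.16) and Csnk1g1 (0.31). The low members had no close neighbor, and their nearest genes were S100a6 (0.53) and Gchfr (0.81) for Igf2bp1, Tmem160 (0.86) and Nr2c2ap (1.05) for Lin28a, and C1qa (0.74) and Zfp992 (0.77) for Lin28b. C1qa is a macrophage gene and had 475, 352 and 165 CPM in dFLEx tumors, against 509 and 3098 CPM in KP tumors.

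The genes around the members were examined next, by lists. Over all tested genes 43.7% had a log2 fold change above 0. Among 10 other oncofetal genes 9 were tested, of which 4 were higher and 5 lower, with a median log2 fold change of -0.99 against -0.18 over all genes. Gpc3, which encodes the cell surface proteoglycan glypican-3, was the gene of this list that passed the threshold. It had 444, 903 and 1489 CPM in dFLEx tumors, against 1.07 and 3.53 CPM in KP tumors (log2 fold change 8.69, SE 1.11, adjusted p 0.0492 in edgeR). Its call was lost on library totals, with the upper quartile and without each tumor in turn except 3802. Dlk1, a Notch-pathway ligand of fetal tissues, had 1231, 2678 and 3137 CPM against 2.75 and 105 CPM (log2 fold change 5.45, SE 1.5, adjusted p 0.215 in edgeR). On the other side, Tpbg, the oncofetal antigen 5T4, had 6.17, 5.39 and 5.71 CPM in dFLEx tumors, against 40.1 and 25 CPM in KP tumors (log2 fold change -2.50, SE 0.57, adjusted p 0.144 in edgeR). The fold change of Plag1 was -2.39 on the log2 scale (SE 1.09, adjusted p 0.509 in edgeR). DESeq2 on tumor sums passed 3 genes of the list, Gpc3, Dlk1 and Tpbg, where 6.07% of all genes passed. The list median was 2.04 without 3802 and 1.94 with limma-voom, so it has no firm direction.

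Of 7 other high mobility group proteins, all 7 had a log2 fold change above 0 with TMM scaling and 0 passed the threshold. Over all tested genes 43.7% were above 0. At an unadjusted p under 0.05 there were 3 of the 7, against 10.6% of all genes. The median was 1.32, and on library totals, which lower all fold changes by a median of 0.28, 6 of the 7 stayed above 0 with a median of 1.05. In 5 of them every dFLEx tumor lay above every KP tumor, against 13.7% of all genes. These counts describe the list only. Hmgb3 had 221, 182 and 182 CPM in dFLEx tumors, against 52.3 and 21.1 CPM in KP tumors (log2 fold change 2.41, SE 0.65, adjusted p 0.207 in edgeR). The fold change of Hmgn2 was 1.52 on the log2 scale (SE 0.61, adjusted p 0.422 in edgeR), and Hmgn3 (0.33) and Hmgn1 (0.07) had the lowest. DESeq2 on tumor sums passed 1 of the 7, Hmgb3, where 6.07% of all genes passed. The HMGB proteins bend DNA and the HMGN proteins bind nucleosomes.

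Genes that HMGA proteins are known to regulate lay on both sides of 0. The list was not divided by whether HMGA proteins raise or lower a gene, so its counts and median do not measure HMGA activity. Of 7 genes 2 were higher and 5 lower, with a median of -0.91, and 0 passed the threshold. At an unadjusted p under 0.05 there were 4, against 10.6% of all genes. The mesenchymal transcription factor genes Twist1 and Snai1 lay higher in every dFLEx tumor, with log2 fold changes of 2.47 (SE 0.64, adjusted p 0.196 in edgeR) and 2.41 (SE 0.63, adjusted p 0.196 in edgeR). The cell cycle inhibitor genes Cdkn2b and Cdkn2a lay lower in every dFLEx tumor, with -3.19 (SE 0.66, adjusted p 0.12 in edgeR) and -2.84 (SE 0.81, adjusted p 0.228 in edgeR). Cdkn2a had 357, 192 and 46.6 CPM in dFLEx tumors, against 1256 and 1588 CPM in KP tumors. DESeq2 on tumor sums and limma-voom each passed these 4 genes, 2 higher and 2 lower, where 6.07% and 2.78% of all genes passed. The median was 0.52 without 3800.

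Transcripts that IGF2BP proteins are known to bind did not share a direction. Of 10 genes 6 were higher and 4 lower, with a median of 0.09, and 0 passed the threshold. At an unadjusted p under 0.05 there was 1, against 10.6% of all genes. The median was 1.08 without 3800, -0.32 without 170025 and -0.20 on library totals. Ccnd1, a cyclin of the G1 phase, had 244, 483 and 1882 CPM in dFLEx tumors, against 484 and 84.0 CPM in KP tumors (log2 fold change 1.61, SE 1.07, adjusted p 0.758 in edgeR). Lamb2, a laminin chain, had 0.90 (SE 0.77). Igf2, the growth factor that gave the family its name, had few counted reads, at 0.149, 0.451 and 1.85 CPM in dFLEx tumors, against 0.0940 and 3.21 CPM in KP tumors. Its imprinted neighbor H19 was abundant in all 5 tumors, at 429, 822 and 1127 CPM and at 970 and 444 CPM. The adhesion receptor gene Cd44 had the lowest fold change (-1.45, SE 0.58, adjusted p 0.426 in edgeR).

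Genes of the m6A machinery lay on both sides of 0. Of 12 writers, erasers and readers 7 were higher and 5 lower, with a median of 0.05, and 0 passed the threshold, adjusted or unadjusted. The values ran from -0.47 for Mettl14, a subunit of the methyltransferase, and -0.33 for the reader gene Ythdf3 to 0.55 for the nuclear reader gene Ythdc1 and 0.79 for Fto, a demethylase. The median was 1.22 with all 12 higher without 3800, -0.40 without 3802 and -0.20 on library totals, so a direction cannot be given from these tumors.

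The let-7 pathway was examined because it links LIN28 to the other members. Of 12 genes of let-7 maturation and decay 5 were higher and 7 lower, with a median of -0.22, and 0 passed the threshold, adjusted or unadjusted. The values ran from -2.19 for Trim71, itself a let-7 target, and -0.49 for the uridylyltransferase gene Tut7 to 0.58 for its paralog Tut4 and 0.69 for Dis3l2, the exonuclease that degrades uridylated let-7 precursors. Dis3l2 had 17.1, 18.6 and 18.2 CPM in dFLEx tumors, against 11.8 and 10.5 CPM in KP tumors. Drosha, Dgcr8, Xpo5 and Dicer1 were higher in 170025 and 3800 than in the other 3 tumors, as Igf2bp2 was. Drosha, for example, had 16.4, 37.6 and 88.5 CPM in dFLEx tumors, against 121 and 11.2 CPM in KP tumors. Without 3800 the list median was 1.53, and without 170025 it was -1.16.

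Of 6 transcripts that host let-7 genes, 5 were matched and tested, 3 higher and 2 lower, with a median of 0.13 and 0 past the threshold, adjusted or unadjusted. The lowest were Mir100hg (-1.28, SE 0.74) and Huwe1 (-1.12, SE 1.34), and the highest were Wdr82 (0.25) and Spaca6 (0.21). Host levels do not give the level of mature let-7.

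Of 22 other let-7 targets 12 were higher and 10 lower, with a median of 0.09, and 0 passed the threshold (5 at an unadjusted p under 0.05). Without 3800 there were 15 higher and 7 lower (median 1.03), without 170025 there were 9 higher and 13 lower (median -0.43), and on library totals the median was -0.17, so the list has no firm direction. In 5 of the 22 every dFLEx tumor lay above every KP tumor (13.7% of all genes), and in 5 below (11.7% of all genes). An unadjusted p under 0.05 was reached by 10.6% of all genes. Ccnd2, a D-type cyclin, was the highest, with 2153, 2416 and 3051 CPM in dFLEx tumors, against 227 and 213 CPM in KP tumors (log2 fold change 3.53, SE 0.58, adjusted p 0.0793 in edgeR). Mycn, a MYC family transcription factor gene, had 4.20, 9.49 and 21.5 CPM against 0.887 and 1.5 CPM (3.30, SE 0.92, adjusted p 0.22 in edgeR). Cdk6, a kinase that binds D-type cyclins, was the lowest, with 5.55, 7.28 and 10.2 CPM in dFLEx tumors, against 170 and 60 CPM in KP tumors (-3.91, SE 0.68, adjusted p 0.0884 in edgeR). Cyclin and partner kinase thus stood on opposite sides. Both passed the threshold with DESeq2 on tumor sums, with limma-voom, with no filter and in each fit on independent libraries. Cdk6 also passed with the upper quartile, with a mean of at least 1 CPM and without 3802, and Ccnd2 with the trend of GC content and length removed. Mycn passed with DESeq2 on tumor sums, with no filter and on independent libraries.

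**Figure D5:**
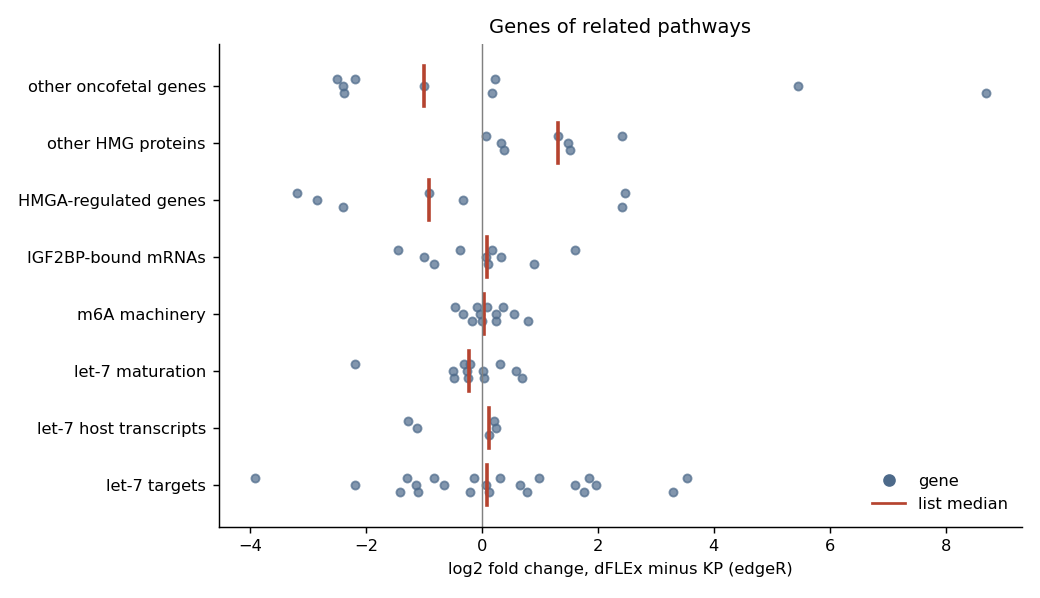
Points are log2 fold changes of dFLEx minus KP (edgeR, 5 tumors) of the tested genes of each list, and red lines are list medians. With TMM scaling the 7 other HMG proteins lie above 0 (6 on library totals), the m6A machinery lies within -0.47 and 0.79, and the point at 8.69 is Gpc3.

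Proliferation genes and genes named as CIC::DUX4 targets set these values in context. Of 6 proliferation genes 4 were higher and 2 lower, with a median of 0.32 and 0 past the threshold, adjusted or unadjusted. The median was 1.31 with all 6 higher without 3800, -0.32 without 3802 and -0.36 without 170025, so it rested on single tumors. The 7 target genes lay higher in every dFLEx tumor, with a median of 4.02 and 0 past the threshold. All 7 had an unadjusted p under 0.05, against 10.6% of all genes. The study gives them as examples from a longer target list, and it chose them on these samples. DESeq2 on tumor sums passed 6 of the 7, all but Dusp6 (6.07% of all genes), limma-voom passed all 7 (2.78% of all genes) and the fit with no filter 6. The log2 fold change of Igf2bp3 (3.66) was close to that of Etv5 (3.88, SE 0.76) among the 7. The study also counts Ccnd2 (3.53) and Myc (0.07), placed here among the let-7 targets, as CIC::DUX4 targets. Summed over the 8 members, the level was 413, 378 and 603 CPM in dFLEx tumors, against 1262 and 408 CPM in KP tumors, which overlapped (exact two-sided permutation p = 0.6).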

How the data were processed

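The authors trimmed reads with Trimmomatic (0.39), aligned them with STAR (2.7.10a) to the mouse genome (mm39) extended by the construct, and deposited raw counts per gene made with featureCounts (Subread 2.0.3). Per the file headers, strand was ignored, reads with several alignments were not counted, and mates were counted as separate reads (57.5% to 61.2% of nonzero counts of a library were even), so counting error is larger than totals imply. Symbols were joined from GENCODE M39 (56017 of 56750 features, 98.7%). The table has columns for 9 libraries, and tumor 3802 has 1 of them (its other library was not analysed here).

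Counts of a tumor's libraries were summed, and the rows of Hmga1 and Hmga1b were summed. Genes were filtered with filterByExpr, scaled by TMM and tested with edgeR (4.0.16) glmQLFit and glmQLFTest, and p-values of the tested genes were adjusted by Benjamini-Hochberg (threshold 0.05). The script was tested on simulated data. SE is the log2 fold change over the root of its F statistic, and 95% intervals use the t quantile at the degrees of freedom of that test. The p-values rest on the spread between 5 tumors, with each gene's spread moderated by that of all tested genes. Alternatives used DESeq2 (1.42.0) and limma-voom (limma 3.58.1), other scalings, filters and units, and each tumor left out. The trend of GC content and length and the promoter core were added after seeing the data. The members and all lists were chosen with earlier results of these data known. All members are named. Of each list the genes past the threshold, the 2 highest and the 2 lowest with a mean of at least 1 CPM are named, as are the 2 genes nearest in pattern (log2 of CPM plus 0.1). Further list genes were named after their values were seen. One allele of the KP genotype is not reported here.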

Additional observations from a re-analysis of the deposited data

How the results depend on the processing

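The number of genes past the threshold (44) was 3341 with 9 libraries as independent samples in edgeR and 4813 in DESeq2, 1387 with DESeq2 on tumor sums, 543 with limma-voom, 880 without a filter, 79 with a mean of at least 1 CPM and 94 with the trend of GC content and length removed. With a tumor left out it ran from 0 to 414. It was 0 without 170019 and without 170024 (1939 and 1414 genes at an unadjusted p under 0.05), 9 without 170025, 8 without 3800 and 414 without 3802. The number of members past it (0) was 3 in both fits on independent libraries, 2 with DESeq2 on tumor sums, limma-voom and no filter, and 1 with Hmga1 and Hmga1b separate, and it ran from 0 to 1 with a tumor left out. Duplicate numbers did not pair libraries of different tumors (correlations of deviations from -0.05 to 0.15), and with the duplicate number as a replicate block on 9 libraries there were 2385 genes, 2 members and a log2 fold change of -2.94 for Hmga1+Hmga1b.

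Hmga1+Hmga1b (-2.68) passed with 9 libraries in edgeR (-2.93) and DESeq2 (-2.94), with DESeq2 on tumor sums (-2.71), limma-voom (-2.34) and no filter (-2.66), and as Hmga1b alone (-7.42), and ran from -3.42 to -0.83 with a tumor left out. Igf2bp3 kept its direction in each setting run and passed in 6 of 12, with values from 3.28 to 3.89. It passed with DESeq2 on tumor sums, limma-voom and no filter. The other passes were the fits on independent libraries and with the replicate block, which count duplicates of a tumor as replicates. Igf2bp1 kept its direction too and passed in 2 of 12, on independent libraries (-2.40 in edgeR, adjusted p 0.0392). Directions reversed for Igf2bp2 without 3800 (0.27, with -2.16 to 0.27 over the tumors left out) and for Lin28a without 3802 (7.28, with -2.79 to 7.28), each by removal of the tumor with the highest level of that gene. With the background per kilobase subtracted the members' fold changes moved by less than their SE. With 1 KP tumor left, that tumor is assumed to vary like the dFLEx tumors. With a mean of at least 1 CPM, Lin28a and Lin28b were not tested. Depth limits Lin28a, Lin28b and Igf2bp1, which have at most 172 reads in a library.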
